A study of Mus musculus with 96 samples.

Results

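Cardiomyocytes (CMs) of infarcted mouse hearts were compared between day 28 (D28) and day 7 (D7) after myocardial infarction, to see which of the miRNA levels of the subacute phase had moved by the chronic phase and which had not. The 4 small RNA libraries labelled CM at D28 and the 4 labelled CM at D7 were used, 8 of the 96 small RNA libraries of the study. All mice were adult males of the inbred strain C57Bl/6J. Infarction was induced in both groups by tying off a coronary artery for good, and the D0 libraries, given here as background, came from mice that were not operated on. A library is a pool of RNA of 3 mice (2 if 1 sample was lacking). The study calls these pools both biological and technical replicates, so the error and p-values given here measure the spread between pools. The mice of the 2 days were different animals. Time after infarction and age cannot be told apart. CMs were enriched by repeated centrifugation at low speed without a marker, and D14 libraries are shown where they lie between the 2 days compared.

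A miRNA is cut from a hairpin as a short duplex, and the strand that is kept guides Argonaute proteins to mRNAs that pair with its seed, bases 2 to 8 of the mature sequence. CMs are rich in muscle miRNAs such as miR-1 and miR-133. The imprinted Dlk1-Dio3 region of mouse chromosome 12 holds one of the largest groups of miRNA genes in mammals, which are processed from long non-coding transcripts of the maternal allele (Meg3, Rian and Mirg) and are high in the embryo and in fibroblasts. Members of the miR-29 family repress collagen mRNAs, and miR-378a lies in an intron of Ppargc1b, which encodes a coactivator of mitochondrial genes.

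The sequences below are those of miRNAs described in the results. The capitals mark the seed. The sequences are those of RefSeq for GRCm38.p6, in which 413 of the 484 tested miRNAs had an entry. The first set holds miRNAs of the Dlk1-Dio3 region that fell from D7 to D28. The second set, the miR-29 arms, is shown because 1 of 3 miRNAs with the same seed passed the test. The last set holds miR-22-3p and 3 let-7 miRNAs, which were higher at D28 on the TMM scale. None of this set passed with library size alone, and the 3 let-7 miRNAs did not pass without D7 replicate 4.
miR-411-5p: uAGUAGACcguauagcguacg
miR-127-3p: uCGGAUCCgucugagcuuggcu
miR-541-5p: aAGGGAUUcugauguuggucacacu
miR-434-5p: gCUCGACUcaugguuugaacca
miR-136-5p: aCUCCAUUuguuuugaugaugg
miR-410-3p: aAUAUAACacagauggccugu
miR-29a-3p: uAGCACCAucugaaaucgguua
miR-29b-3p: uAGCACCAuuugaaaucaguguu
miR-29c-3p: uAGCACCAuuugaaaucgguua
miR-22-3p: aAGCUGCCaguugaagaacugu
let-7b-5p: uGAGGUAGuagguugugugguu
let-7c-5p: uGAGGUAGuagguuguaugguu
let-7g-5p: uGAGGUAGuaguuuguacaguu

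Counts on mature miRNAs summed to between 12638115 and 16975435 in the D7 libraries and to between 9074955 and 14893526 in the D28 libraries. miR-1a-3p, the most abundant CM miRNA, took 37.5% to 54.6% of these counts at D7 and 50.1% to 55.4% at D28, which left the other miRNAs a different share of the reads. Levels are therefore given as TMM CPM, the usual CPM with a library size scaled with the trimmed mean of M values, and each result was also computed with library size as the only scaling. D28 replicate 1 stood apart. It had the lowest TMM factor of the 8 libraries (0.670 against 1.21 to 2.00 in the others) and the fewest miRNAs detected (646 against 676 to 815). Its mean distance to the other D28 libraries, the root mean square log2 difference over all tested miRNAs, was 0.775, against 0.508 to 0.540 for the other libraries of D28. Its mean distance to the D0 libraries was 1.18, against 1.53 to 1.66, so counts are also given without it. The D14 libraries had between 3327351 and 14938730 counts. Their share of unaligned reads was 48.8% to 83.0%, against 41.8% to 46.2% at D7 and 36.3% to 44.5% at D28.

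From D7 to D28, 99 of 484 tested miRNAs changed at an adjusted p under 0.05 (20.5%), of which 38 rose (7.85%) and 61 fell (12.6%). The test was edgeR's quasi-likelihood test over the 24 CM libraries with Benjamini-Hochberg adjustment. The miRNAs that fell and those that rose lay at different levels. The falls had a median size of 2.08 on the log2 scale and a median level of 3.08 CPM, and 3 of the 61 had a mean of at least 100 CPM. The rises had a median size of 0.95 and a median level of 185 CPM, and 21 of the 38 had at least 100 CPM. On the TMM scale the D28 and D7 libraries did not overlap for 57 of the 61 falls and 34 of the 38 rises. Over all tested miRNAs this share was 31.2% (17.6% with D28 lower and 13.6% with D28 higher). Without overlap the two-sided exact permutation test gives 0.0286, the smallest p that 4 against 4 libraries allow.

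**Figure D1:**
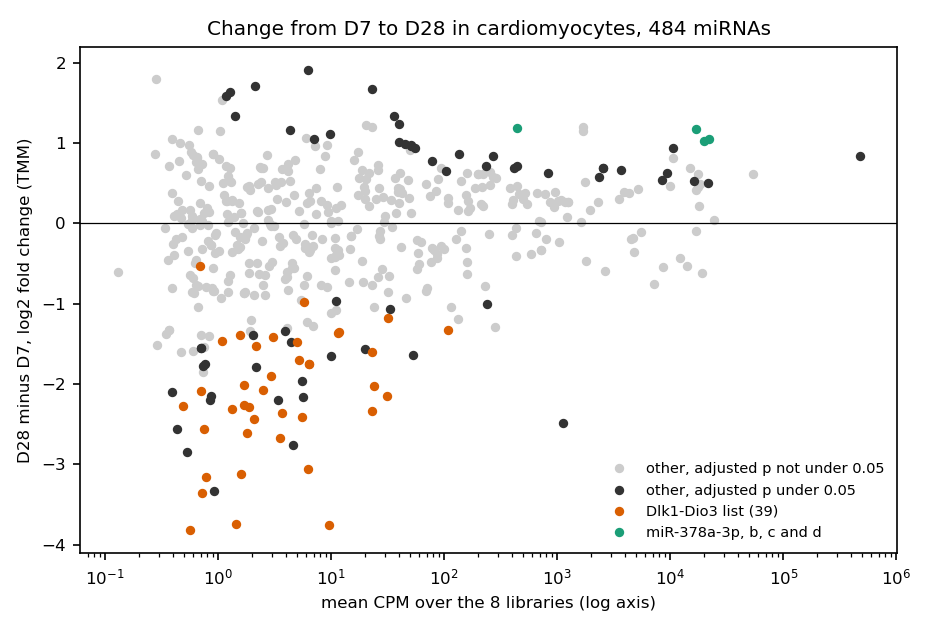
Each point is 1 of the 484 tested miRNAs; the x axis is its mean CPM over the 8 libraries (log axis) and the y axis its log2 fold change from D7 to D28 on the TMM scale. All 39 miRNAs of the Dlk1-Dio3 list (orange, 36 of them past the threshold) lie below 0, mostly at low levels, and the 4 miR-378 miRNAs (green) lie between 1.02 and 1.19.

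The direction of the smaller changes depended on the scaling. With library size alone, 81 miRNAs passed (16.7%), of which 3 rose (0.62%) and 78 fell (16.1%), and the median change of all tested miRNAs moved from -0.01 to -0.57. All 61 falls passed under both scalings. Of the 38 rises, 36 stayed above 0 with library size alone but 3 passed, namely miR-185-3p, miR-378d and miR-1943-5p. Without D28 replicate 1 there were 62 calls (12.8%), 15 higher (3.1%) and 47 lower (9.71%). Without D7 replicate 4 there were 50, 13 higher and 37 lower. In all 8 fits that each left out 1 of the libraries, 45 of the 99 calls were made, 11 rises and 34 falls, and 25 of those falls were on the Dlk1-Dio3 list.

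**Figure D2:**
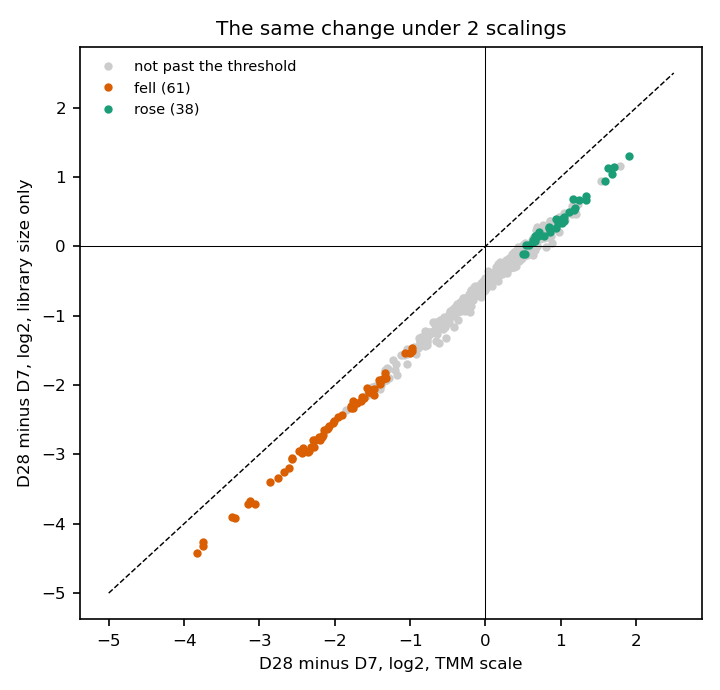
Log2 fold change from D7 to D28 with TMM scaling (x axis) and with library size only (y axis) for the 484 tested miRNAs, coloured by the call on the TMM scale; the dashed line marks equal values. All 484 points lie below the line, so that the 61 falls keep their sign while the rises move towards 0, and 2 of the 38 rises end below it.

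The miRNAs of the Dlk1-Dio3 region fell together. Of 55 mature miRNAs on the list 39 passed the filter on low counts, and of these 36 fell, 0 rose and 3 did not pass the test (miR-376b-5p, miR-381-3p and miR-370-3p), beside 12.6% of all tested miRNAs that fell. Their median log2 fold change was -2.09, against -0.01 for all tested miRNAs and 0.11 for the 440 outside the region. Scaled by library size, 38 of the 39 fell and the median was -2.62. The filter asked for enough counts in as many libraries as 1 day holds, so members low at D28 could pass through D7 or another day. miR-377-3p, for example, had 6, 21, 5 and 33 counts at D7 and 0, 1, 0 and 1 at D28. The 39 were thus partly chosen by the days on which they were high. The list lost most calls without D7 replicate 4, with 25 falls and a median of -1.77, and without D28 replicate 1 there were 32 falls.

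Summed over the 39 miRNAs, TMM CPM was 269.8, 299, 332 and 511 in the D7 libraries and 122, 108, 94.7 and 117 in the D28 libraries. Each D28 library was thus below every D7 library. At D14 the sum was 186 to 357, and at D0 it was 167 to 204. Where D0 lies against D28 depends on the scaling, since the TMM factors of the D0 libraries were 0.289 to 0.357. In plain CPM the sum was 48.3 to 73.0 at D0, 328 to 882 at D7 and 81.8 to 144 at D28. Against D0, 33 of the 39 were higher and 0 lower at D7, where 69% of all tested miRNAs passed (38.8% higher, 30.2% lower). At D28, 6 were higher and 4 lower than D0, where 54.3% of all passed (29.5% higher, 24.8% lower). The median against D0 was 2.85 at D7 and 0.58 at D28 on the TMM scale, and 5.13 and 2.27 with library size alone. All 5 fibroblast marker miRNAs were also higher than at D0 on both days, with medians of 2.92 at D7 and 2.39 at D28 on the TMM scale, and their part in the difference from D0 was not tested. These comparisons share libraries and are given side by side as values only.

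**Figure D3:**
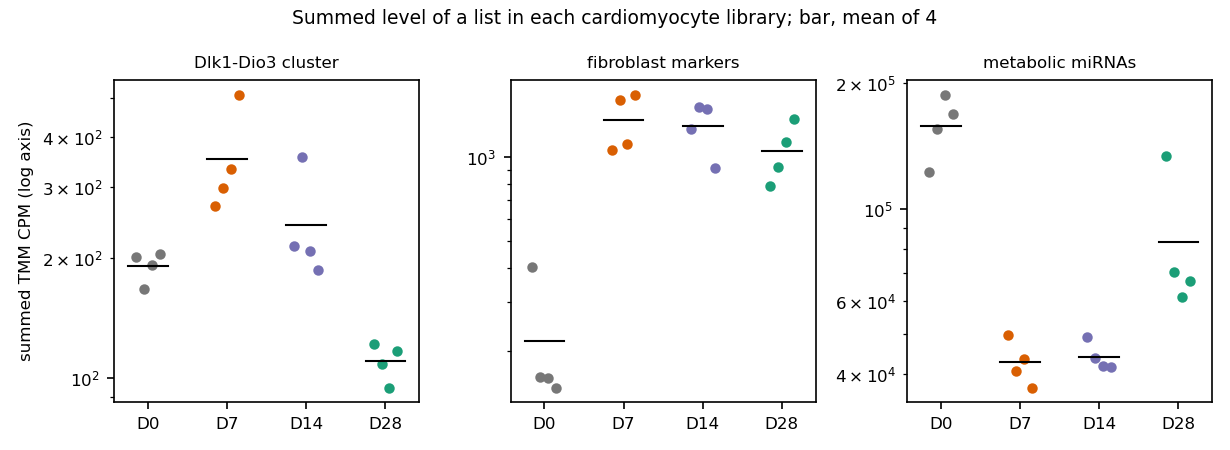
Summed TMM CPM (log axis) of the Dlk1-Dio3 list, of 5 fibroblast marker miRNAs and of 12 metabolic miRNAs in each CM library at D0, D7, D14 and D28; points are libraries and bars are means of 4. The Dlk1-Dio3 sum is 94.7 to 122 at D28, below the 269.8 to 511 of D7. The fibroblast markers overlap between the 2 days. The high D28 point of the metabolic miRNAs is replicate 1, which in plain CPM is below replicate 2 (89420 against 92335).

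miR-411-5p had the smallest adjusted p of the region. Its hairpin lies at chr12:109710175-109710256 (+, GRCm38) in an intergenic stretch of the annotation. TMM CPM was 21.2, 30.6, 32.9 and 44.6 at D7 and 6.60, 6.45, 6.05 and 10.0 at D28. All D28 libraries were lower, by 2.15 on the log2 scale (SE 0.31, adjusted p = 0.00017, edgeR). At D0 it was 2.38 to 4.23, so it remained above D0 at D28 under both scalings, by 1.34 with TMM (adjusted p = 0.0021) and 3.12 with library size (adjusted p = 2.4e-06). Its partner arm miR-411-3p fell by 1.76 (adjusted p = 0.0011).

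miR-127-3p, which is antisense to the imprinted gene Rtl1, was the most abundant of the region. Its hairpin lies at chr12:109592846-109592915 (+). The D7 libraries had 96.7, 78.3, 101 and 141 TMM CPM and the D28 libraries 51.1, 39.3, 34.7 and 41.3. The groups did not overlap, and the level fell by 1.33 on the log2 scale (SE 0.34, adjusted p = 0.0078). With 67.7 to 103 TMM CPM at D0, miR-127-3p did not differ from D0 at D7 beyond the threshold (0.33, adjusted p = 0.39) and was below it at D28 by 1.00 (adjusted p = 0.015), but above it by 0.75 with library size alone (adjusted p = 0.024).

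miR-541-5p comes from chr12:109742409-109742498 (+), in an intron of Mirg. It was at 22.2, 17.9, 24.2 and 36.7 TMM CPM at D7 and at 5.61, 6.34, 5.30 and 7.60 at D28. It fell by 2.02 (SE 0.35, adjusted p = 0.00096). miR-434-5p, from chr12:109594506-109594599 (+), had 18.4, 19.7, 25.5 and 35.3 TMM CPM at D7 and 6.71, 5.01, 3.21 and 4.65 at D28. The difference was -2.34 (SE 0.42, adjusted p = 0.0011), and no D28 library reached the lowest D7 library for either miRNA.

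miR-136-5p, from chr12:109595327-109595388 (+), fell by 3.75 on the log2 scale (SE 0.76, adjusted p = 0.0013) and spread most at D7. TMM CPM was 1.91, 5.15, 8.93 and 26.9 at D7 and 0, 0.819, 1.49 and 0.715 at D28. The groups were separate, but by a narrow gap between D7 replicate 1 and D28 replicate 3. Without D7 replicate 4 the difference was -2.75 (adjusted p = 0.011). miR-410-3p lies at the far end of the cluster (chr12:109743715-109743795, +, overlapping an exon of Mirg). It had 4.55, 6.62, 5.06 and 6.89 TMM CPM at D7 and 0.330, 0.921, 1.57 and 1.43 at D28, a fall of 2.42 (SE 0.46, adjusted p = 0.0012).

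Of the 3 members that did not pass, miR-381-3p was the most abundant, with 14.6, 30.4, 26.4 and 46.4 TMM CPM at D7 and 18.6, 11.4, 11.1 and 11.1 at D28. The groups overlapped on the TMM scale through D28 replicate 1 and D7 replicate 1, but not in plain CPM. The highest D28 library in plain CPM was replicate 2 (222 of 14893526 counts), and the lowest D7 library was replicate 1 (244 of 13766721). The difference was -1.18 on the TMM scale (SE 0.46, adjusted p = 0.074). With library size alone it was -1.86 (adjusted p = 0.0051).

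By position, falls lay in both parts of the region. The miRNAs in the cluster from chr12:109563692 to 109595388 (14 hairpins, among them those of miR-127, miR-434 and miR-136) had a median of -2.01, and 9 of 9 tested fell. Those in the cluster from chr12:109709060 to 109747960 (36 hairpins, among them miR-411, miR-410 and miR-541) had a median of -2.12, and 28 of 32 fell. Clusters were built from hairpins on 1 strand with at most 10 kb between neighbours. No other cluster with at least 4 tested miRNAs had more than 1 call. The miR-322 to miR-542 cluster on chromosome X had 1 fall among 10, and the let-7a, let-7f and let-7d cluster on chromosome 13 had 1 rise among 5.

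**Figure D4:**
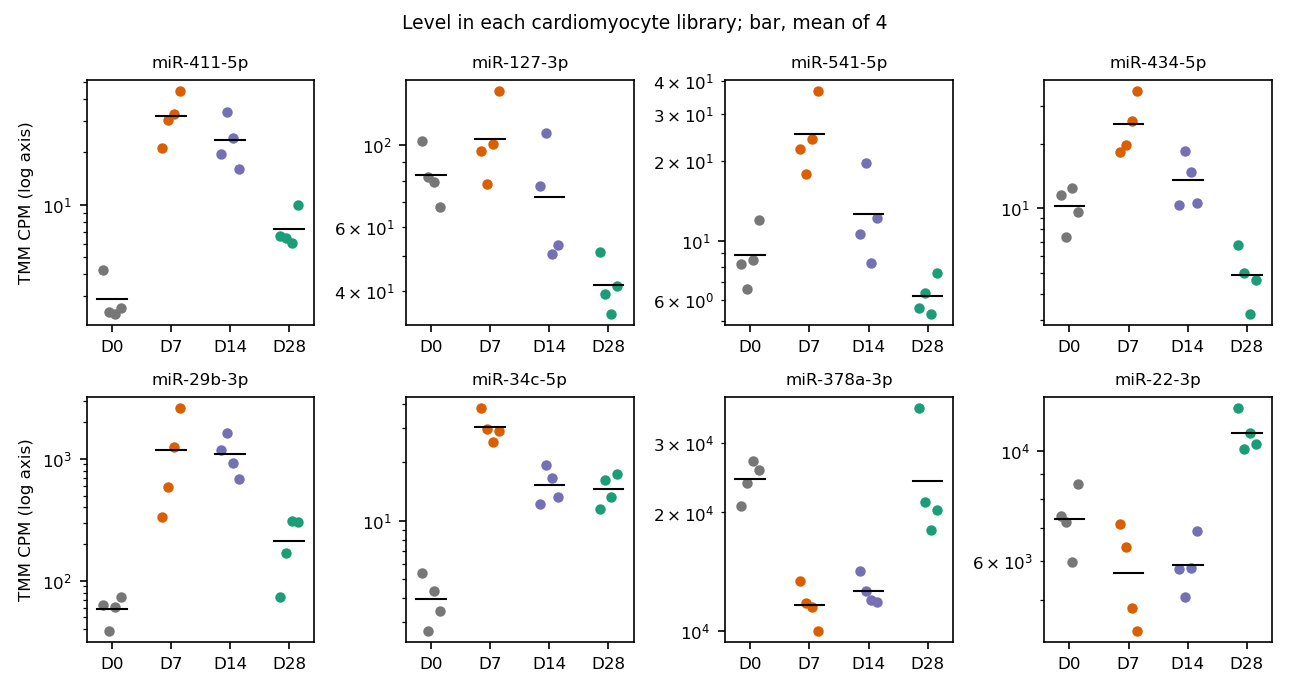
TMM CPM (log axis, scaled per panel) of 8 miRNAs in each CM library at D0, D7, D14 and D28; points are libraries and bars are means of 4. In the 4 miRNAs of the Dlk1-Dio3 region, miR-29b-3p and miR-34c-5p every D28 library lies below every D7 library, and in miR-378a-3p and miR-22-3p every D28 library lies above.

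The region is high in fibroblasts, so values of fibroblast markers were set beside it. By edgeR 0 of the 5 fibroblast marker miRNAs passed the test from D7 to D28 (1 at an unadjusted p under 0.05, and 1 fell by DESeq2), all 5 were below 0, and their median was -0.41, with -0.97 under library size alone. Their summed TMM CPM was 1057 to 1677 at D7 and 783 to 1367 at D28. miR-199a-3p, the most abundant of them, is listed with the same counts as miR-199b-3p and had 528, 594, 474 and 639 TMM CPM at D7 and 354, 381, 458 and 579 at D28 (-0.34, 95% interval -1.03 to 0.36, adjusted p = 0.52). In plain CPM the CM libraries held 2.58% to 4.41% of the fibroblast level of the markers at D7 and 1.07% to 2.51% at D28. For the 39 miRNAs of the region the median percentage was 5.37% at D7 and 2.25% at D28. At D7, 15 of the 39 were at or below the highest marker percentage and 24 were above it. miR-379-5p (0.921% at D7, 0.514% at D28) and miR-127-3p (1.78% and 1.09%) were among the former, and miR-136-5p (56.8% and 4.12%) was among the latter. The part of fibroblast RNA in the fall was not tested, and in bulk samples fewer cells of a type and less RNA per cell cannot be told apart.

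Fibroblasts and endothelial cells (ECs) also had lower levels of the region at D28, and hematopoietic cells (HCs) mostly did not. In a fit over all 96 libraries and 712 miRNAs, 24 of the 39 fell in fibroblasts (FBs) (13.5% of all tested), 26 fell in ECs (19%) and 2 fell in HCs (9.55%), with 7.87% of all tested higher in HCs. The median of D28 minus D7 was -2.21 in CMs, against -1.51 (ECs), -0.97 (FBs) and -0.08 (HCs). The change in CMs differed from the mean change of the other 3 cell types for 16 of the 39, all towards a stronger fall in CMs, beside 46 of 712 (6.46%) with a lower and 25 (3.51%) with a higher change in CMs. miR-411-5p had -2.25 in CMs, beside -1.51 (ECs), -0.88 (FBs) and 0.14 (HCs), an interaction of -1.51 (adjusted p = 0.00061). For miR-136-5p the interaction was -3.46 (adjusted p = 0.0024), but -1.33 (adjusted p = 1) without EC D28 replicate 2. It was -1.59 for miR-541-5p (adjusted p = 0.00037), -1.42 for miR-434-5p (adjusted p = 0.0057) and -1.13 for miR-127-3p (adjusted p = 0.0057). It was 0.45 for miR-381-3p (adjusted p = 0.58), which fell by 2.64 in ECs and by 1.93 in FBs. The study left out 1 D28 library of ECs as an outlier without naming it, whereas all 4 were used here. Leaving out each of the 4 in turn gave 19 to 29 falls in ECs (19 without replicate 2 and 29 without replicate 4), EC medians of -2.13 to -1.31 and 12 to 19 of the 39 miRNAs with a change called lower in CMs than in the other cell types.

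**Figure D5:**
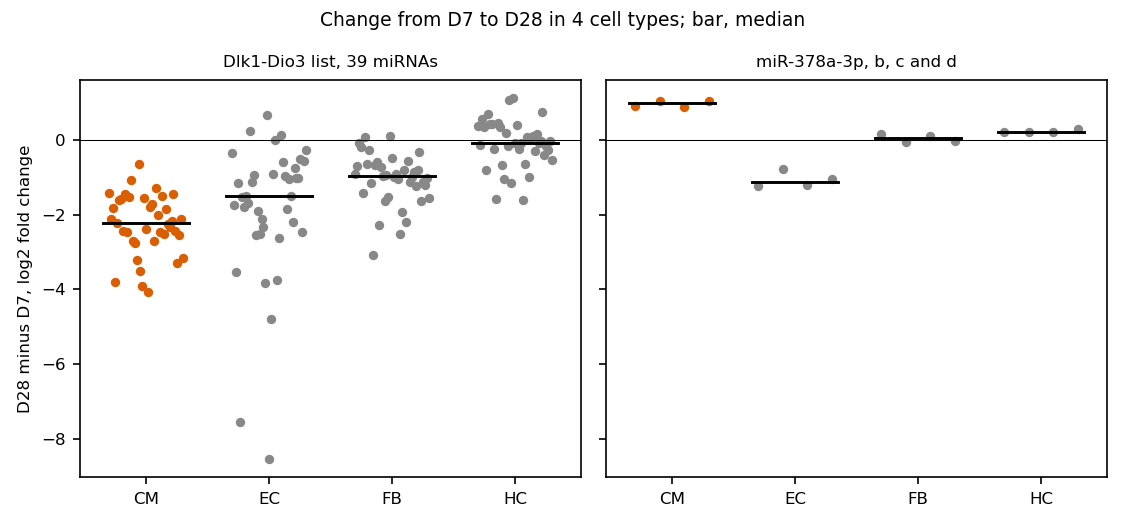
Log2 fold change from D7 to D28 in CMs (orange), ECs, FBs and HCs (grey), from the fit over 96 libraries, for the 39 miRNAs of the Dlk1-Dio3 list and for miR-378a-3p, b, c and d; bars are medians. The medians of the list are -2.21, -1.51, -0.97 and -0.08, and the miR-378 miRNAs are above 0 by 0.88 to 1.04 in CMs and below 0 in ECs.

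Among miRNAs with at least 100 CPM, miR-29b-3p had the largest fall. Its copies lie at chr1:195037040-195037120 (+), overlapping an exon of A330023F24Rik, and at chr6:31063023-31063093 (-), overlapping an exon of Gm27019. TMM CPM was 331, 585, 1258 and 2597 at D7, 678 to 1621 at D14, and 73.2, 167, 311 and 303 at D28. All D28 libraries were lower, although the D7 libraries spread widely. The fall was 2.48 on the log2 scale (SE 0.55, adjusted p = 0.0027), and 1.76 without D7 replicate 4 (adjusted p = 0.026). With 38.5 to 72.9 at D0, miR-29b-3p was still above D0 at D28, by 1.86 with TMM (adjusted p = 0.0056) and 3.74 with library size.

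miR-29a-3p and miR-29c-3p have the seed of miR-29b-3p and are encoded beside it, at chr6:31062660-31062747 (-) and chr1:195037547-195037634 (+). miR-29a-3p was at 9018, 9983, 9489 and 10545 TMM CPM at D7 and at 4575, 7201, 9511 and 7684 at D28. The groups overlapped, and the difference was -0.43 (95% interval -1.29 to 0.43, adjusted p = 0.51). miR-29c-3p had 5638, 7186, 7241 and 8064 at D7 and 3203, 4912, 6005 and 5236 at D28 (-0.54, 95% interval -1.37 to 0.29, adjusted p = 0.38). Both were above D0 at D28, by 2.51 and 2.47 on the TMM scale, and above it with library size too. Of the 6 tested miR-29 arms 1 fell and 0 rose, with a median of -0.31. Whether miR-29b-3p differed from its relatives was not tested. In the other cell types miR-29b-3p fell by 1.68 in ECs (-1.41 without EC D28 replicate 3, adjusted p = 0.083) and was at 0.40 in FBs and 0.41 in HCs, with an interaction of -2.25 (adjusted p = 0.0080).

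On the list of miRNAs linked to hypertrophy and stress, 3 of 24 tested rose and 5 fell (beside 7.85% and 12.6% of all tested), with a median of 0.21 that became -0.37 with library size alone. The 5 that fell were miR-21a-3p, miR-34b-5p, miR-34b-3p, miR-34c-5p and miR-132-5p. The miR-34 family consists of targets of p53. miR-34c-5p was at 37.9, 29.9, 25.6 and 28.8 TMM CPM at D7 and at 11.6, 16.2, 13.2 and 17.4 at D28. The groups did not overlap, and it fell by 1.06 (SE 0.25, adjusted p = 0.0049). At D0 it was 2.69 to 5.36, and at D28 it was above that by 1.89 with TMM and 3.70 with library size. miR-34b-5p, from the hairpin at chr9:51103562-51103645 (-), had 13.4, 7.81, 9.10 and 10.7 TMM CPM at D7 and 5.17, 5.53, 4.33 and 5.90 at D28, a fall of 0.97 (adjusted p = 0.025) that did not pass without D28 replicate 1 (adjusted p = 0.059). The change of miR-34c-5p differed from that of the other cell types by -1.15 (adjusted p = 0.016; without EC D28 replicate 4, 0.053) and that of miR-34b-5p by -1.38 (adjusted p = 0.0078). miR-132-5p, a passenger arm, had 1.44, 2.46, 6.09 and 13.6 TMM CPM at D7 and 1.32, 1.43, 1.57 and 0.894 at D28. Its groups overlapped, and the call was lost without D7 replicate 4 (adjusted p = 0.11).

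The miRNAs of the miR-183 cluster on chromosome 6, known for their high levels in sense organs, also fell; they were chosen after their values were seen. miR-96-5p had 2.27, 5.75, 4.65 and 6.79 TMM CPM at D7 and 0.550, 1.02, 0.672 and 0.537 at D28. miR-182-5p had 12.3, 10.3, 10.6 and 8.25 at D7 and 4.62, 4.04, 1.72 and 2.77 at D28. miR-183-5p had 3.23, 4.04, 3.99 and 3.27 at D7 and 1.10, 1.07, 0.598 and 0.358 at D28. None of the 3 overlapped between days, and they fell by 2.75, 1.66 and 2.19 on the log2 scale (adjusted p = 0.0012, 0.0079 and 0.0040). All 3 fell in FBs too, by 2.85, 3.45 and 3.86, and the interactions were -0.79, -0.05 and 0.06 (adjusted p of 0.59, 1 and 1).

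miR-374b-5p, from an intron of Ftx at chrX:103573060-103573154 (-), was the third fall among miRNAs with at least 100 CPM. It had 134, 149.7, 223 and 351 TMM CPM at D7 and 96.7, 99.5, 124 and 109 at D28. It fell by 1.00 (SE 0.34, adjusted p = 0.038), without overlap. The call was lost in 6 of the 8 fits that each left out 1 library, among them those without D28 replicate 1 (adjusted p = 0.087) and without D7 replicate 4 (-0.65, adjusted p = 0.20).

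Among miRNAs with at least 100 CPM that passed the test, the miR-378 miRNAs had the largest rises; miR-30e-3p and miR-30a-3p, at 1.20 and 1.15, did not pass (adjusted p = 0.061 and 0.054). Of 12 tested metabolic miRNAs 4 rose, all of them miR-378 miRNAs, and 0 fell (beside 7.85% of all tested that rose), with a median of 0.27 that became -0.22 with library size alone. miR-378a-3p was at 13375, 11777, 11507 and 9973 TMM CPM at D7 and at 36786, 21255, 18032 and 20240 at D28. In plain CPM the groups overlapped, with D7 replicate 2 (297071 of 12638115 counts) above D28 replicate 3 (241360 of 10586976). On the TMM scale every D28 library was higher, with replicate 1 farthest from the rest. The rise was 1.05 on the log2 scale (SE 0.21, adjusted p = 0.0012). Without D28 replicate 1 it was 0.77 (adjusted p = 0.0097). Under library size scaling it was 0.42 (adjusted p = 0.11).

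miR-378b had 264, 221, 222 and 183 TMM CPM at D7 and 793, 435, 388 and 410.4 at D28, and rose by 1.19 (SE 0.25, adjusted p = 0.0017). miR-378c and miR-378d rose by 1.02 and 1.18 (adjusted p = 0.0012 and 0.0020). These sequences differ from each other by few bases, so that reads may have been divided among them, and their changes are not independent. Under that scaling miR-378b and miR-378c were at 0.56 and 0.40 (adjusted p = 0.062 and 0.15), and miR-378d rose by 0.52 (adjusted p = 0.042). The other arm, miR-378a-5p, had 727, 852, 740 and 827 TMM CPM at D7 and 575, 653, 871 and 574 at D28 (-0.23, 95% interval -0.89 to 0.42, adjusted p = 0.63). Against D0, miR-378a-3p was lower at D7 by 1.06 on the TMM scale (adjusted p = 0.00012) and at -0.01 at D28 (adjusted p = 0.95), while with library size alone it was above D0 on both days, by 1.25 and 1.67. Its change from D7 to D28 was 0.90 in CMs, beside -1.24 (ECs), 0.16 (FBs) and 0.20 (HCs), and the interaction was 1.19 (adjusted p = 0.00061). The interactions of miR-378b, miR-378c and miR-378d were 1.26, 1.18 and 1.30.

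miR-22-3p, a muscle-enriched miRNA that takes part in hypertrophic growth, lies at chr11:75463716-75463810 (+) overlapping exons of Mir22hg and Tlcd2. It had 7106, 6390, 4819 and 4322 TMM CPM at D7 and 12196, 10089, 10895 and 10350 at D28. In plain CPM D28 replicate 1 (110849 of 13563622 counts) was below D7 replicate 1 (118773 of 13766721), so the groups overlapped. On the TMM scale the libraries were well apart, and miR-22-3p rose by 0.94 (SE 0.23, adjusted p = 0.0051). It kept the call without D28 replicate 1 (0.89, adjusted p = 0.021) but not with library size alone (0.40, adjusted p = 0.24). At D0 it was 5957 to 8568, so that D28 was above D0 by 0.58 (adjusted p = 0.033) and D7 was at -0.36 (adjusted p = 0.16), while with library size alone both days were above D0, by 2.33 and 1.94. The change was -0.90 in ECs and 0.45 in FBs and HCs, with an interaction of 0.81 (adjusted p = 0.018).

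Of the miR-30 family 4 of 11 tested rose (beside 7.85% of all tested) and 0 fell, with a median of 0.84. All 4 were 3p arms, which are the passenger strands of these hairpins: miR-30c-1-3p, miR-30d-3p, miR-30b-3p and miR-30c-2-3p. miR-30c-1-3p, from an intron of Nfyc at chr4:120769534-120769622 (-), had 23.5, 21.8, 17.4 and 14.2 TMM CPM at D7 and 54.1, 39.9, 45.2 and 41.9 at D28, a rise of 1.24 (SE 0.25, adjusted p = 0.0013). miR-30d-3p had 28.8, 32.8, 21.4 and 27.2 at D7 and 78.0, 44.6, 51.3 and 42.9 at D28, a rise of 0.97 (adjusted p = 0.0033). Both passed without D28 replicate 1, whereas miR-30b-3p and miR-30c-2-3p did not (adjusted p = 0.12 and 0.21). Under library size scaling 0 of the 11 passed, and the median was 0.28.

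The abundant guide arms of the family did not pass. miR-30a-5p had 20340, 14608, 21692 and 16070 TMM CPM at D7 and 26946, 16182, 16521 and 15132 at D28 (0.04, 95% interval -0.49 to 0.57). miR-30d-5p was at 0.22 (95% interval -0.34 to 0.77) and miR-30c-5p at 0.61 (95% interval 0.06 to 1.17, adjusted p = 0.12). The ratio of the arms itself was tested over 99 hairpins, and 0 passed (0% called, smallest adjusted p = 0.19, limma), while 15 had an unadjusted p under 0.05. Without D7 replicate 1, 1 passed. The 95% interval of the change lay within 1 log2 unit of 0 for 16 hairpins, so most ratios were too variable for a change to be bounded.

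let-7 miRNAs, which are high in differentiated cells, included 4 rises among 16 tested (beside 7.85% of all tested) and 0 falls, with a median of 0.51 that became -0.06 with library size alone. With the filter repeated without D28 replicate 1, 0 of the 16 rose. Of 9 tested miRNAs with the let-7 seed, 3 rose. let-7b-5p had 2531, 1989, 2032 and 2050 TMM CPM at D7 and 3318, 3218, 3589 and 3477 at D28, a rise of 0.66 (SE 0.20, adjusted p = 0.024). let-7c-5p had 6158, 4693, 5127 and 5037 at D7 and 7399, 7257, 8079 and 7691 at D28, a rise of 0.53 (adjusted p = 0.047). Neither group overlapped. let-7g-5p rose by 0.63 (adjusted p = 0.035) with overlapping groups and did not pass without D28 replicate 1. The passenger arm let-7d-3p had 263, 267, 219 and 252 at D7 and 355, 483, 414 and 391 at D28, a rise of 0.71 (adjusted p = 0.026). Scaled by library size these 4 were at 0.15, 0.03, 0.06 and 0.20, with no call, and without D7 replicate 4 none of them passed (adjusted p of 0.055 to 0.089). The 2 most abundant members, let-7f-5p and let-7a-5p, were at 0.48 and 0.49 (adjusted p = 0.12 and 0.076).

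Other rises at 100 CPM or more were small. miR-125b-2-3p had 85.3, 80.3, 78.4 and 67.0 TMM CPM at D7 and 229.6, 103, 124 and 108 at D28, a rise of 0.86 (adjusted p = 0.013). miR-146a-5p, a brake on innate immune signalling, had 135, 108, 156 and 152 at D7 and 264, 198, 216 and 229 at D28, a rise of 0.72 (adjusted p = 0.038). miR-486a-5p, which is high in red cells and muscle and is listed with the same counts as miR-486b-5p, had 2021, 1210, 1547 and 1313 at D7 and 3115, 2211, 2127 and 2404 at D28, a rise of 0.69 (adjusted p = 0.024). None of the 3 passed without D28 replicate 1, without D7 replicate 4 or with library size alone. miR-27a-3p and miR-27b-3p rose by 0.52 and 0.50 (adjusted p = 0.044 and 0.047). With library size alone they were at -0.11 and -0.10, and they did not pass without D28 replicate 1. Their sequences differ by few bases, so reads may have been divided between them, and their changes may not be independent. The largest rise of all, at a low level, was that of miR-185-3p, from an intron of Tango2 at chr16:18327401-18327465 (-); it was chosen after its values were seen. It had 4.55, 2.66, 1.03 and 1.23 TMM CPM at D7 and 15.3, 6.34, 5.30 and 8.41 at D28. It rose by 1.91 (SE 0.47, adjusted p = 0.0057) and by 1.30 with library size alone (adjusted p = 0.038), and its interaction with the other cell types was 1.77 (adjusted p = 0.0018).

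Of 13 tested muscle miRNAs 1 rose (beside 7.85% of all tested) and 0 fell. The members ranged from -0.89 to 0.84, with a median of 0.03 that became -0.36 with library size alone. Their summed TMM CPM, most of it miR-1a-3p, was 211564 to 467039 at D7 and 395820.0 to 843414 at D28. miR-1a-3p had 449667, 195472, 275535 and 216908 TMM CPM at D7 and 826767, 381832, 401175 and 424997 at D28. The groups overlapped, since D7 replicate 1 exceeded 3 of the D28 libraries. It rose by 0.84 (SE 0.30, adjusted p = 0.048), but was at 0.26 with library size alone (adjusted p = 0.15) and at 0.52 without D28 replicate 1 (adjusted p = 0.29). Against D0 it was lower at D7 by 2.84 and at D28 by 2.01 on the TMM scale, and by 0.60 and 0.33 with library size. miR-1b-5p, the second most abundant as counted, had 48452, 24259, 37031 and 31095 at D7 and 97367, 35625, 40475 and 41175 at D28 (0.61, adjusted p = 0.21). Its counts were 9.33% to 14.3% of those of miR-1a-3p in the 12 CM libraries of D0, D7 and D28. Whether they are reads of miR-1a-3p was not tested. miR-133a-3p had 4205, 3728, 3219 and 3132 at D7 and 1891, 2972, 4069 and 3631 at D28 (-0.19, 95% interval -1.13 to 0.76). miR-499-5p, encoded in a slow myosin gene, had 6978, 7143, 5356 and 6244 at D7 and 11799, 6947, 8851 and 7939 at D28 (0.47, 95% interval 0.03 to 0.90, adjusted p = 0.13).

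Some levels that had left D0 by D7 were still there at D28. By the rule on kept levels, with a 95% interval of D28 minus D7 within 1 log2 unit, the largest above D0 were miR-199a-5p, miR-107-3p, miR-103-3p and miR-484. miR-199a-5p had 310.2, 569, 354 and 579 TMM CPM at D7 and 241, 308, 391 and 449 at D28, beside 46.0 to 95.3 at D0. Its difference between the days was -0.38 (95% interval -0.9996 to 0.23), and D28 was above D0 by 2.54. It is also a fibroblast marker, of which CMs held 4.41% of the FB level at D7 and 2.51% at D28. The part of fibroblast RNA in this kept level was not tested. miR-107-3p and miR-103-3p, which share a seed and are known for their link to insulin sensitivity, were above D0 at D28 by 1.82 and 1.69, with 0.27 (95% interval -0.39 to 0.92) and 0.28 (95% interval -0.36 to 0.92) between the days. Their sequences differ by few bases, so reads may have been divided between them. miR-484 was above D0 by 1.58, with -0.20 between the days (95% interval -0.85 to 0.46). These 4 were above D0 with library size alone as well, by 3.46 to 4.37, under which all 4 were below 0 between the days. The rule on kept levels was applied on the TMM scale only. Mean plain CPM of miR-199a-5p, for example, was 766 at D7 and 403 at D28.

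Below D0 the largest were miR-148b-3p, let-7i-5p, let-7j and miR-25-3p. miR-148b-3p had 1186 to 1604 TMM CPM at D0, 296 to 486 at D7 and 346 to 725 at D28, a difference of -1.58 from D0 at D28 and of 0.24 between the days (95% interval -0.31 to 0.78). let-7i-5p was at -1.51 from D0, let-7j at -1.47 and miR-25-3p at -1.37. The sequences of let-7i-5p and let-7j differ by few bases, so reads may have been divided between them. Scaled by library size none of the 4 was below D0, at 0.10, 0.18, 0.21 and 0.37.

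The remaining lists had few calls. The miR-17-92 cluster and its paralogs had 1 fall (miR-18a-5p) and 0 rises among 14, with a median of -0.31, and the fall was lost without D28 replicate 1 (adjusted p = 0.072). miR-19b-3p of this list had 218, 257, 293 and 293 TMM CPM at D7 and 63.0, 95.4, 158 and 118 at D28, without overlap, at -1.29 (95% interval -2.44 to -0.13, adjusted p = 0.11). miR-20a-5p was at -0.14. The miR-15 and miR-16 family had 0 calls among 14 (1 at an unadjusted p under 0.05, and 1 fell by DESeq2) and a median of -0.33, with -0.13 for miR-16-5p, -0.33 for miR-322-5p and -0.81 for miR-15a-5p, each short of the threshold.

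Values of the markers of other cells are given beside these results. The 8 leukocyte markers had a summed TMM CPM of 331 to 477 at D7 and 390.5 to 474 at D28, with 1 rise (miR-146a-5p), 1 fall and a median of -0.57. At an unadjusted p under 0.05 there were 5 of the 8, and by DESeq2 1 rose and 4 fell. The fall was that of miR-142a-3p, a miRNA of blood cells, which had 18.2, 30.5, 12.9 and 13.9 TMM CPM at D7 and 2.09, 7.21, 7.84 and 8.14 at D28 and fell by 1.57 (adjusted p = 0.0082). CMs held 0.344% of the HC level of miR-142a-3p at D7 and 0.157% at D28. miR-150-5p had 101, 59.9, 169 and 103 at D7 and 56.3, 43.0, 58.9 and 52.1 at D28 (-1.05, adjusted p = 0.074), and miR-155-5p was at 0.27 (adjusted p = 0.44). miR-223-3p, a defining marker of myeloid cells, was at 6.26 plain CPM at D7 and 1.87 at D28 in CMs (-1.31), and miR-142a-5p was at -1.12. Of the 8 leukocyte markers 6 were below 0 and 2 above. Most of their sum was miR-146a-5p and miR-155-5p, with 222 and 176 plain CPM at D7 and 248 and 148 at D28. CMs held 72.8% of the HC level of miR-155-5p at D7 and 116% at D28. The endothelial markers miR-126a-3p and miR-126a-5p were at 0.45 (adjusted p = 0.22) and 0.27 (adjusted p = 0.69), with sums of 10756 to 14562 at D7 and 13841 to 22518 at D28. Neither passed at an unadjusted p under 0.05 or by DESeq2, and both were below 0 with library size alone. The 3 mural markers had 0 calls, likewise also unadjusted and by DESeq2, with 0.68 for miR-143-3p, 0.02 for miR-145a-5p and 0.37 for miR-145a-3p, and sums of 8616 to 14107 and 12101 to 31165. Of the 4 erythroid markers miR-486a-5p rose, and miR-451a, miR-144-3p and miR-144-5p were at -0.33, 0.05 and -0.63, without a call. Sums were 1222 to 2029 at D7 and 2136 to 3127 at D28, most of it miR-486a-5p. CMs held 745% of the HC level of miR-486a-5p at D7 and 618% at D28. The part of these cells in the results was not tested.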

How the data were processed

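Small RNA of CMs, ECs, FBs and HCs was sequenced from mouse hearts before and after infarction. The authors trimmed adaptors, aligned reads to mature miRNAs and hairpins of miRBase and deposited raw counts per mature miRNA and library; Trim Galore, Bowtie2 and SAMtools and the build mm10 are named in the submitters' processing notes, without versions. How a read with several matches, or its strand, was counted is not given in the sources used here. The line of unaligned reads, 36.3% to 46.2% of the 8 libraries, was left out of library sizes and tests. The tables list 1978 mature miRNAs. Reads carried no molecular identifiers, so low counts have PCR and counting error, and 4 libraries per group limit the precision.

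Groups came from the labels. The 24 CM libraries were fitted with edgeR 4.0.16 in R 4.3.3 (TMM scaling, filterByExpr by day, quasi-likelihood test, Benjamini-Hochberg adjustment, threshold 0.05), which left 484 miRNAs, and the contrast D28 minus D7 was taken. The change in CMs was compared with the mean change of the other 3 cell types as an interaction over 96 libraries and 712 miRNAs; at each time the pools of the cell types came from the same animals, which this fit did not use. For the ratio of 2 arms, limma 3.58.1 was fitted to log2 ratios, with 0.5 added to each count. Exact permutation tests were two-sided, over 70 arrangements. The scripts were tested on simulated data. Tables were handled with Python 3.11.15. Positions came from RefSeq and host genes from GENCODE, both on GRCm38.

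Alternatives were DESeq2 1.42.0, DESeq2 size factors, library size only, no filter, only the 2 days, the replicate number as a block, miRNAs with identical counts counted once, each library left out and a minimum change of 1 log2 unit. A fit of D7, D14 and D28, the filter repeated without D28 replicate 1, library size only over 8 libraries, and EC D28 replicates 1, 2 and 4 left out in turn were added after the data were seen. The lists and the comparison were chosen with earlier results of these data known. Named were the 10 largest rises and falls (adjusted p under 0.05, at least 100 CPM, no overlap), the 3 most abundant miRNAs, the 4 largest kept levels on each side of D0, arm ratios that passed, the 3 most abundant members of each list and miRNAs with counts identical to a named one. Other members of the lists that passed were named for their counts, after their values were seen. Total RNA-seq was not analysed here.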

Additional observations from a re-analysis of the deposited data

Results flagged for a closer look

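On the TMM scale D28 replicate 1 was far above the other D28 libraries, by Dixon's ratio of gap to range. This held in 13 of the 16 cases in which a library of a named miRNA stood apart. The ratios were 0.84 for miR-378b, 0.861 for miR-1a-3p, 0.856 for miR-1b-5p, 0.848 for miR-30a-5p, 0.846 for miR-30d-5p and 0.853 for miR-30c-5p. Among let-7 miRNAs they were 0.922 for let-7i-5p, 0.903 for let-7j, 0.959 for let-7f-5p, 0.975 for let-7a-5p and 0.898 for let-7g-5p. They were 0.954 for miR-381-3p and 0.963 for miR-143-3p. D28 replicate 4 was high for miR-411-5p (0.83), and D7 replicate 2 was low for let-7j (0.843) and let-7a-5p (0.886). The critical value for 4 libraries is passed in about 1 in 20 groups by chance, and these miRNAs share libraries and scaling. The same replicate had the lowest TMM factor of the 8 libraries, which raises its TMM CPM. Summed over the let-7 list it had 78512 TMM CPM, against 56870 to 59012 in the other D28 libraries. In plain CPM it was lowest, at 52610 against 71046 to 74631. The miR-30 sum in plain CPM, 70831, lay among the others (68212 to 78064). The muscle and mural sums stayed highest (565160 against 519440 to 543891, and 20883 against 14910 to 16037). The part of the factor in the ratios was not tested.

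The change from D7 to D28 in CMs differed from the mean change of ECs, FBs and HCs for 11 named miRNAs. The difference was 1.26 for miR-378b, 1.30 for miR-378d, 1.19 for miR-378a-3p, 1.18 for miR-378c, 0.81 for miR-22-3p and 1.04 for miR-155-5p. It was -2.25 for miR-29b-3p, -1.13 for miR-127-3p, -1.51 for miR-411-5p and -1.11 for miR-199a-3p and for miR-199b-3p, which have the same counts. miR-155-5p and miR-199a-3p had no call from D7 to D28 in CMs. miR-155-5p was at 0.15 in CMs, beside -1.25 (ECs), -0.81 (FBs) and -0.62 (HCs). miR-199a-3p was at -0.45 in CMs, beside -0.48 (ECs), 0.70 (FBs) and 1.78 (HCs).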

How the results depend on the processing

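The count of changes (99) was within 1.5 times of its value under all alternatives except without D7 replicate 4, without D28 replicate 1 and with the filter repeated without D28 replicate 1 (60, 11 higher and 49 lower). Leaving out 1 library gave 50 to 102 in all, 13 to 39 higher and 37 to 63 lower. Higher calls (38) became 3 with library size only, 21 with DESeq2 size factors, 19 without a filter, 16 at a change of at least 1 log2 unit, 22 without D7 replicate 2 and 22 without D7 replicate 3. With library size over the 8 libraries alone there were 3 higher and 95 lower. DESeq2 gave 116 calls, 38 higher and 78 lower. Calls of arm ratios were 0 to 1 over the libraries left out, with 1 without D7 replicate 1. The interaction count (71, 25 higher and 46 lower) was 52 to 87 with 1 CM or EC D28 library left out; its higher calls were 16 to 33 there, 14 with library size only and 16 without D7 replicate 4. Named miRNAs kept direction and side of the threshold in 847 values, lost a call in 96 and gained one in 22. Direction reversed in 5, where the rises of miR-27a-3p and miR-27b-3p became -0.106 and -0.103 with library size only, about the same over the 8 libraries, and miR-30a-5p became -0.55 there. Equal replicate numbers did not pair the libraries (correlations of 0.185, 0.284, -0.177 and 0.029; own number the best partner in 2 of 4), and the replicate number as a block gave 106 calls and 75 interactions. Sequencing depth limits most falls, whose median was 3.08 CPM.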

Other observations

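Some mature miRNAs are reverse complements of one another, and the counting's use of strand is not known. Among tested miRNAs with a RefSeq sequence, 8 pairs were reverse complements over at least 16 bases. Among them miR-3074-5p, which rose, had 54.3% of the CPM of miR-24-3p, which did not pass, and miR-126b-5p, which rose, had 0.442% of that of miR-126a-3p. miR-299a-3p and miR-299a-5p, which both fell, were also such a pair. miR-126a-5p and miR-126b-3p, whose hairpins overlap on opposite strands, had nearly the same counts in each of the 8 libraries. They had 14612 and 14615 counts in D7 replicate 1, and 5659 and 5660 in D28 replicate 1. Whether the same reads were counted for both was not tested. Reads of such pairs cannot be told apart here. miR-1b-5p had counts equal to 9.33% to 14.3% of those of miR-1a-3p in each of the 12 CM libraries of D0, D7 and D28. Whether these are reads of miR-1a-3p was not tested.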
